A study of Mus musculus with 19 samples.

Results

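The 10 genes described here mark B cells and the antibody-producing plasma cells that B cells become, and they were read from a table of 26796 mouse genes by matching each gene identifier to its symbol. The genes are Cd79a, Cd79b and Ms4a1 on the B cell side and Igkc, Ighm, Igha, Ighg1, Ighg2b, Ighg3 and Jchain on the antibody side, and all 10 were in the table. RNA was sequenced from 19 whole breast tumours of mice bearing Met1, a transplantable mouse mammary tumour line. The mice were given extracellular vesicles, small membrane particles shed by cells, from neutrophils. In the 27HC group (10 tumours) the neutrophils had been exposed to 27-hydroxycholesterol, a cholesterol metabolite, and in the DMSO group (9 tumours) to the solvent DMSO. All 19 tumours therefore carried the same tumour line and vesicles from the same kind of cell, and no tumour without vesicles is described here. The sources used here do not state the strain, age or sex of the mice, the dose of vesicles or the time of harvest. Each tumour is named by its group and the pair of numbers in its title, such as 27HC 1_3. The labels do not say whether tumours came from separate mice, so p-values measure the spread between these samples.

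A B cell carries its antigen receptor as a membrane antibody bound to the signalling proteins CD79A and CD79B, which Cd79a and Cd79b encode, and Ms4a1 encodes CD20, a surface protein that B cells lose when they become plasma cells. A plasma cell secretes antibody and devotes a large part of its messenger RNA to it, so that a few plasma cells can supply most of the antibody transcripts of a tissue. Each antibody pairs a light chain, mostly kappa in mice (constant region gene Igkc), with a heavy chain whose constant region sets the isotype. Ighm gives IgM, the isotype of B cells before class switching, Ighg1, Ighg2b and Ighg3 give forms of IgG, and Igha gives IgA, the antibody of mucosal and glandular surfaces. Jchain encodes the joining chain that links IgM and IgA units into larger assemblies.

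The IgG heavy chain genes arose by duplication, so how far their sequences differ sets how well reads of the isotypes can be told apart. The genes lie on chromosome 12 of GRCm38, on the minus strand. The first constant domain is a 291-base exon in each, and along it Ighg1 matched Ighg2b at 88.3% of positions and Ighg3 at 79.0%, and Ighg2c matched Ighg3 at 78.4%. A stretch of 60 bases from this exon, written 5′ to 3′ from GENCODE M21, carries in capitals the 23 positions at which the 4 IgG genes are not all the same.
Ighg1, chr12:113330459-113330518, minus strand: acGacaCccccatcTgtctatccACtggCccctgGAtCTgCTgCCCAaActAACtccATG
Ighg2b, chr12:113307869-113307928, minus strand: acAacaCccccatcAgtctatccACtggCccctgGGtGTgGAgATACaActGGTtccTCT
Ighg2c, chr12:113288868-113288927, minus strand: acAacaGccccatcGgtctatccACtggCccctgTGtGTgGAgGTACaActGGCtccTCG
Ighg3, chr12:113361168-113361227, minus strand: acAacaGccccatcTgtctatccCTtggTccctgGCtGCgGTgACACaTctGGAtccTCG
The hinge, a separate exon that joins this domain to the rest of the chain, was of a different length in each gene: 39 bases in Ighg1, 66 in Ighg2b, 63 in Ighg2c and 48 in Ighg3. The hinge exons are shown whole, without capitals, because their lengths do not line up.
Ighg1, chr12:113329844-113329882, minus strand: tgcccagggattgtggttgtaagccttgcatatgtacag
Ighg2b, chr12:113307261-113307326, minus strand: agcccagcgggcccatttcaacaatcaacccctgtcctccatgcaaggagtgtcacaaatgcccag
Ighg2c, chr12:113288263-113288325, minus strand: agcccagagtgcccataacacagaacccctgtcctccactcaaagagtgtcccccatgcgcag
Ighg3, chr12:113360529-113360576, minus strand: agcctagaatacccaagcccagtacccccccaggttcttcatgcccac
Over the secreted transcripts, 99.2% of the 31-base words of Ighg1 were in no other annotated gene, as were 97.6% of those of Ighg3, 88.3% of those of Ighg2c and 87.3% of those of Ighg2b. For Ighm, Igha and Igkc the share was 100%. Expected counts divide reads shared by near-identical transcripts with a model, so the split between Ighg2b and Ighg2c carries more uncertainty than the levels of Ighg1, Ighm or Igha.

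The libraries held 28139419 to 41179056 expected counts each. In 5 libraries the GC content of the counted transcripts, averaged over counts, was 49.82% to 50.01%, against 51.25% to 52.85% in the other 14, and these 5 low-GC libraries were 27HC 1_3, 27HC 1_5, 27HC 2_3, DMSO 1_5 and DMSO 2_3. They stood apart in the genes described here as well: 4 of them, all but 27HC 1_5, were among the 5 tumours with the highest sums of antibody genes, and the same 4 were among the 5 with the highest sums of B cell genes. The remaining tumour in both top 5 sets was 27HC 1_4. Other cell type markers followed these libraries to differing degrees. The summed level of 5 epithelial markers was 74.1 to 127 CPM in the low-GC libraries and 127 to 227 CPM in the others. For T and NK cells the low-GC range lay within that of the others. The sum of 8 T cell markers was 45.6 to 113 CPM (median 89.1) and 38.5 to 119 CPM (median 57.7). That of 5 NK cell markers was 35.7 to 73.8 CPM (median 59.3) and 11.9 to 97.1 CPM (median 29.7). The summed level of 7 salivary gland markers was 972 CPM in 27HC 2_2, of which Prol1 gave 938 CPM, against a median of 19.5 CPM in 27HC tumours. It was 6862 CPM in DMSO 1_5, with Bpifa2 at 3974 CPM, against a median of 21.9 CPM in DMSO tumours. The highest sums of 6 skeletal muscle markers were in 27HC 1_5 (3314 CPM) and 27HC 1_3. The part of these differences in the levels below was not tested. Values without the 5 libraries are given for fold changes of named genes, the shares of Ighg1 and Ighg2c and the correlations, and levels and counts over lists are from all 19 tumours. In whole tumours, fewer cells of a type and less RNA per cell cannot be told apart.

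The B cell receptor genes were detected in every tumour at low levels, and the groups overlapped for all 3. CPM here is a count divided by its library's TMM-normalized size, and each group's lowest, median and highest tumour are given. Cd79a was at 0.846, 1.76 and 4.80 CPM in 27HC tumours, against 1.33, 1.51 and 2.81 CPM in DMSO tumours. Cd79b was at 0.408, 0.643 and 2.84 CPM in 27HC tumours, against 0.504, 0.835 and 1.86 CPM in DMSO tumours. The highest tumour for both genes was 27HC 1_4, which was not a low-GC library. Ms4a1 was at 0.130, 0.353 and 2.01 CPM in 27HC tumours, against 0.224, 0.409 and 1.84 CPM in DMSO tumours. Its lowest library held 4 counts and its highest 80, and the 4 highest tumours, 27HC 2_3, DMSO 2_3, 27HC 1_3 and DMSO 1_5, were all low-GC libraries and drew from both groups.

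The antibody genes varied widely between tumours, and the groups overlapped for each. Igkc, the kappa light chain constant region on chromosome 6, was at 12.1, 47.4 and 361 CPM in 27HC tumours, against 28.6, 85.8 and 197 CPM in DMSO tumours. Both the lowest and the highest tumour were in the 27HC group, 29.9-fold apart. Kappa made up nearly all light chain constant region counts: 96.6%, 98.7% and 99.3% in 27HC tumours, against 97.4%, 98.8% and 99.5% in DMSO tumours. Jchain, the joining chain gene on chromosome 5, was at 1.45, 4.54 and 38.4 CPM in 27HC tumours, against 1.08, 7.02 and 27.9 CPM in DMSO tumours. Tumours at both ends of its range came from both groups.

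Ighm and Igha were lower by median in the 27HC group. Ighm was at 16.3, 21.4 and 62.2 CPM in 27HC tumours, against 24.2, 34.6 and 102 CPM in DMSO tumours. Of the 10 27HC tumours, 6 were below the lowest DMSO tumour, and the other 4 lay within the DMSO range. Igha was at 17.6, 51.9 and 135 CPM in 27HC tumours, against 14.3, 58.2 and 138 CPM in DMSO tumours, with almost the same range in each group.

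Among the IgG genes, Ighg1 had the higher median in 27HC tumours, the further IgG gene Ighg2c had the lower one, and the medians of Ighg2b and Ighg3 were close. Ighg1 was at 8.41, 52.2 and 297 CPM in 27HC tumours, against 11.4, 36.9 and 81.0 CPM in DMSO tumours. Of the 10 27HC tumours, 7 were above the DMSO median and 4 above the highest DMSO tumour, while the lowest of all 19 was also a 27HC tumour, 27HC 1_2. Ighg2b was at 1.06, 6.16 and 189 CPM in 27HC tumours, against 1.71, 6.17 and 37.1 CPM in DMSO tumours. Its medians were nearly equal, and the 27HC mean of 33.1 ± 61.4 CPM (SD, n = 10), against 11.1 ± 11.5 CPM in DMSO tumours (SD, n = 9), came with 189 CPM in 27HC 1_3 and 93.6 CPM in 27HC 2_3. Ighg3, which encodes the least abundant of the IgG forms measured, was at 0.0391, 1.55 and 21.3 CPM in 27HC tumours, against 0.482, 1.38 and 4.60 CPM in DMSO tumours, and 27HC 1_3 was again the highest. Its lowest value rests on 1 count. Ighg2c, which encodes an IgG form carried by some mouse strains and is not among the 10 genes, was at 1.67, 6.39 and 115 CPM in 27HC tumours, against 4.45, 15.6 and 47.2 CPM in DMSO tumours. Of the 10 27HC tumours, 4 were below the lowest DMSO tumour and 2, 27HC 1_3 and 27HC 2_3, above the highest. Its log2 fold change, which these high tumours enter, was 0.27 with all tumours and -0.78 without the low-GC libraries, neither past the threshold (adjusted p 1.00 and 0.789 by edgeR).

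**Figure D1:**
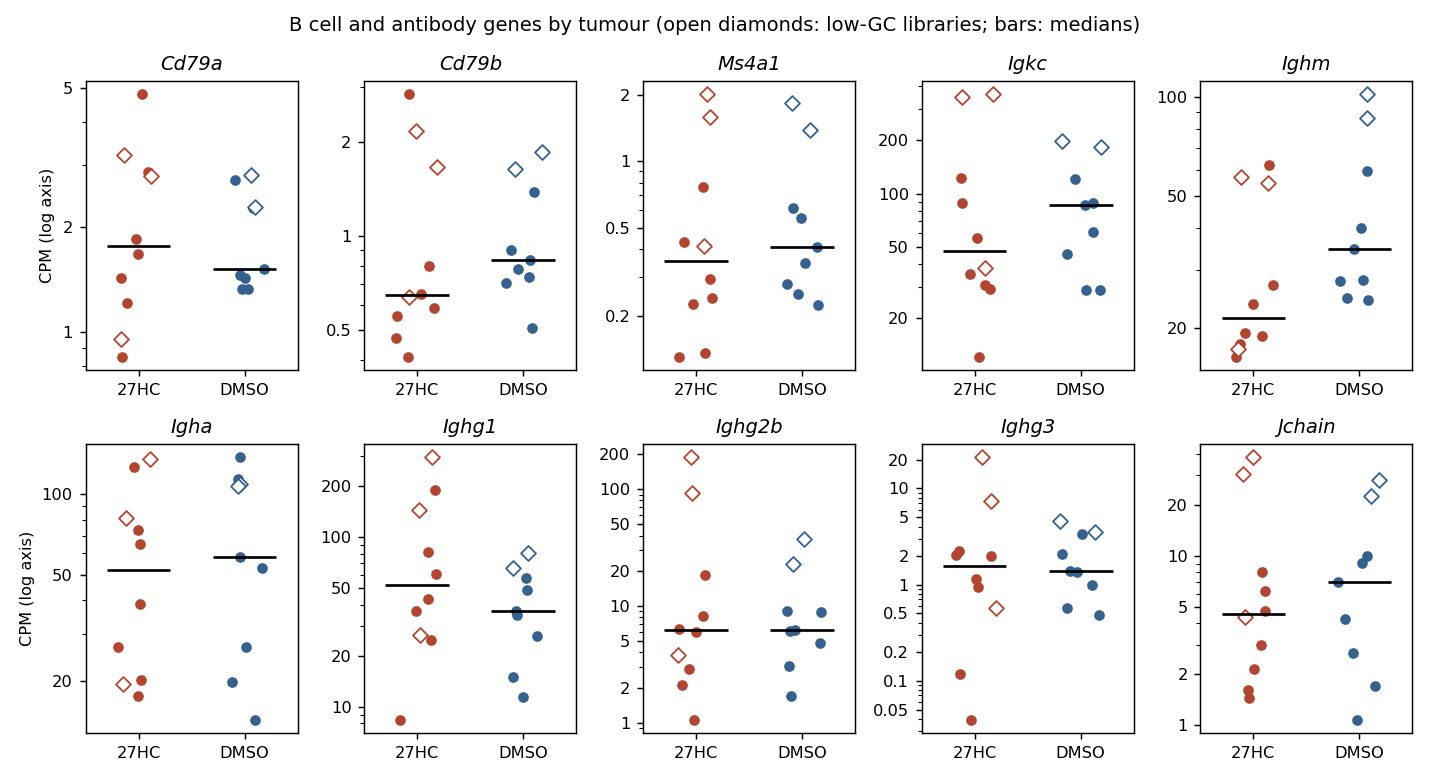
CPM (log axis) of the 10 genes in each of 10 27HC and 9 DMSO tumours, with a point for each tumour, open diamonds for the 5 low-GC libraries and bars for the group medians. The groups overlap for every gene, and low-GC libraries from both groups hold the 4 highest values of Ms4a1, Igkc, Ighg2b, Ighg3 and Jchain.

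None of the 10 genes passed the test of 27HC against DMSO tumours across all genes. All 10 passed the filter on low counts, and 0 of 10 had an adjusted p under 0.05 in edgeR's quasi-likelihood test with Benjamini-Hochberg adjustment, where 0% of the 15629 genes tested did so (smallest adjusted p 0.838 for any gene). At an unadjusted p under 0.05 the count was 1 of 10, Ighg1, beside 2.27% of all genes (1.29% higher in 27HC tumours and 0.979% lower). Ighg1 had a log2 fold change of 1.12 (SE 0.53, 95% interval 0.02 to 2.23, unadjusted p 0.0457, adjusted p 1.00). Ighg2b followed at 1.58 (SE 0.88, interval -0.25 to 3.40) and Ighm at -0.59 (SE 0.35, interval -1.31 to 0.13). The 10 genes had a median log2 fold change of 0.13, with 7 above 0, against a median of 0.01 over all genes tested, of which 46.1% were below 0. That direction depended on the fit. By DESeq2 7 of 10 were above 0 (median 0.14), but by limma-voom 3 of 10 (median -0.18) and with quality weights 1 of 10 (median -0.47). Without the low-GC libraries 4 of the 9 genes tested were above 0 (median -0.21). The intervals of the remaining genes allow changes in either direction: Jchain at 0.07 had an interval of -1.34 to 1.48, Igkc at 0.27 of -0.92 to 1.46, and Cd79a at 0.19 of -0.44 to 0.82.

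Single tumours set several of these values. Ighg2b had a log2 fold change of 0.50 without 27HC 1_3 and 0.18 without the 5 low-GC libraries. Ighg3 was at 0.89 with all tumours, at -0.18 without 27HC 1_3 and at -0.28 without the low-GC libraries, and Igkc was at -0.28 and Jchain at -0.39 without them. Ighg1 was at 0.67 without 27HC 2_3, its highest tumour, and at 0.96 (SE 0.51, adjusted p 0.787 by edgeR) without the low-GC libraries. By limma-voom it was at 0.68, and at 0.35 with quality weights, and with a replicate block in edgeR at 0.78. The B cell genes Cd79a and Cd79b were at 0.30 and 0.13 without the low-GC libraries, and Ighm and Igha at -0.37 and -0.21. Ighg1 stayed above 0, and Ighm and Igha below 0, with all tumours and in all 31 alternative fits, and the smallest adjusted p of any of the 10 genes in any of these fits was 0.73.

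**Figure D2:**
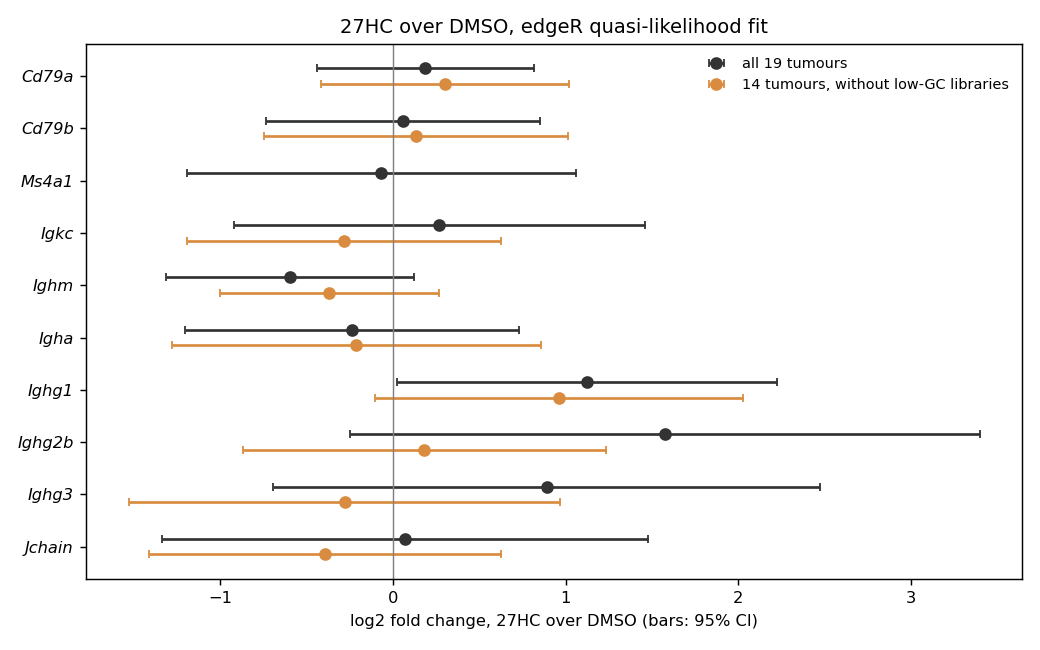
Log2 fold change of 27HC over DMSO (horizontal axis) for each of the 10 genes, with 95% intervals, from all 19 tumours (black) and from the 14 that are not low-GC libraries (orange); Ms4a1 did not pass the filter on low counts in the 14. Ighg1 lies at 1.12 and 0.96 in the 2 fits, while Ighg2b lies at 1.58 and 0.18.

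Per kilobase of transcript, so that genes can be compared, the order of median levels over all 19 tumours was Igkc (114 CPM per kilobase), Igha (52.9), Ighg1 (40.4), Ighm (18.5), Ighg2b (5.54), Jchain (2.02), Ighg3 (1.28), Cd79a (1.15), Cd79b (0.544) and Ms4a1 (0.133). The heavy chain genes were divided by the length of their secreted transcript and the others by that of their longest. With the longest transcript for every gene, Igha came to 22.9, Ighg1 to 17.5, Ighm to 16.3, Ighg2b to 2.41 and Ighg3 to 0.572 CPM per kilobase, which puts Ighg3 below Cd79a. With the lengths first named, Igkc was above Igha, Ighg2b above Jchain, Cd79a above Cd79b and Cd79b above Ms4a1 in all 19 tumours. The other neighbours changed places between tumours: Igha was above Ighg1 in 13 of 19, Ighg1 above Ighm in 15, Ighm above Ighg2b in 17, Jchain above Ighg3 in 15 and Ighg3 above Cd79a in 8. The spread between tumours was wide for all 10 genes, with coefficients of variation of 48.0% for Cd79a to 201% for Ighg2b, against a median of 32.0% over all genes tested.

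Each heavy chain gene's share of heavy chain transcripts sets the isotypes against each other within a tumour. Shares could still differ with how much antibody RNA a tumour held. In 27HC 2_3 and 27HC 1_3, with the highest sums of antibody genes (987 and 873 CPM), the Ighm share was 6.22% and 7.05%. In 27HC 1_2 and DMSO 1_3, with the lowest sums (61.1 and 82.6 CPM), it was 28.8% and 35.1%. Tumours next to these extremes did not keep that order. In DMSO 2_3 and DMSO 1_5, with the next highest sums (535 and 514 CPM), the Ighm share was 18.8% and 22.6%. In 27HC 2_5, with the next lowest sum (106 CPM), it was 18.7%. A link of shares to these sums was not tested. The share of Ighg1 was 38.1% ± 11.6 in 27HC tumours (SD, n = 10) and 24.5% ± 6.81 in DMSO tumours (SD, n = 9), a difference of 13.7 percentage points. It was 18.8%, 37.6% and 54.8% (lowest, median, highest) in 27HC tumours, against 15.2%, 22.8% and 36.1% in DMSO tumours, and 9 of 10 27HC tumours were above the DMSO median. The 2-sided exact permutation test over tumours gave p = 0.0074 and an adjusted p of 0.0518 over the 7 isotypes tested, which missed the threshold of 0.05. The call turned on how the shares were made. Here each count was divided by the length of the gene's secreted transcript, a choice made after a first set of values, with the longest annotated transcript of each gene, had given 13.1 points and an adjusted exact p of 0.0322. Without length scaling the difference was 13.5 points (adjusted exact p 0.0424), and among the 5 heavy chain genes studied here alone 13.9 points (adjusted exact p 0.0416). Leaving out 27HC 1_2, 27HC 1_3, DMSO 1_1 or DMSO 2_1 also brought it past the threshold (adjusted exact p down to 0.0101), and leaving out others raised it to as much as 0.102. Without the low-GC libraries it was 13.4 points (unadjusted exact p 0.0350, adjusted 0.122).

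The other isotype shares did not pass. That of Ighm was 6.22%, 12.2% and 28.8% in 27HC tumours, against 8.64%, 18.8% and 36.9% in DMSO tumours, a difference of means of -7.55 points with an adjusted exact p of 0.207, and 8 of 10 27HC tumours were below the DMSO median. That of Igha was 31.3% ± 11.8 in 27HC tumours and 37.0% ± 10.9 in DMSO tumours (adjusted exact p 0.501). Ighg2c had a share of 6.55% ± 4.91 in 27HC tumours and 9.45% ± 2.88 in DMSO tumours (adjusted exact p 0.328). Its difference of -2.90 points became -4.28 (adjusted exact p 0.0145) without 27HC 1_3, in which the share was highest, and -3.76 (adjusted exact p 0.0326) without the low-GC libraries. Ighg2b made up 7.75% ± 8.91 of heavy chain transcripts in 27HC tumours and 5.16% ± 2.42 in DMSO tumours, with an adjusted exact p of 0.758. Ighg3 made up 1.14% ± 1.05 in 27HC tumours and 1.09% ± 0.304 in DMSO tumours, and Ighd 1.07% ± 0.546 in 27HC tumours and 1.17% ± 0.641 in DMSO tumours. In the 10 27HC tumours the leading isotype was Igha in 5, Ighg1 in 4 and Ighg2b in 1. In the 9 DMSO tumours it was Igha in 6, Ighm in 2 and Ighg1 in 1.

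**Figure D3:**
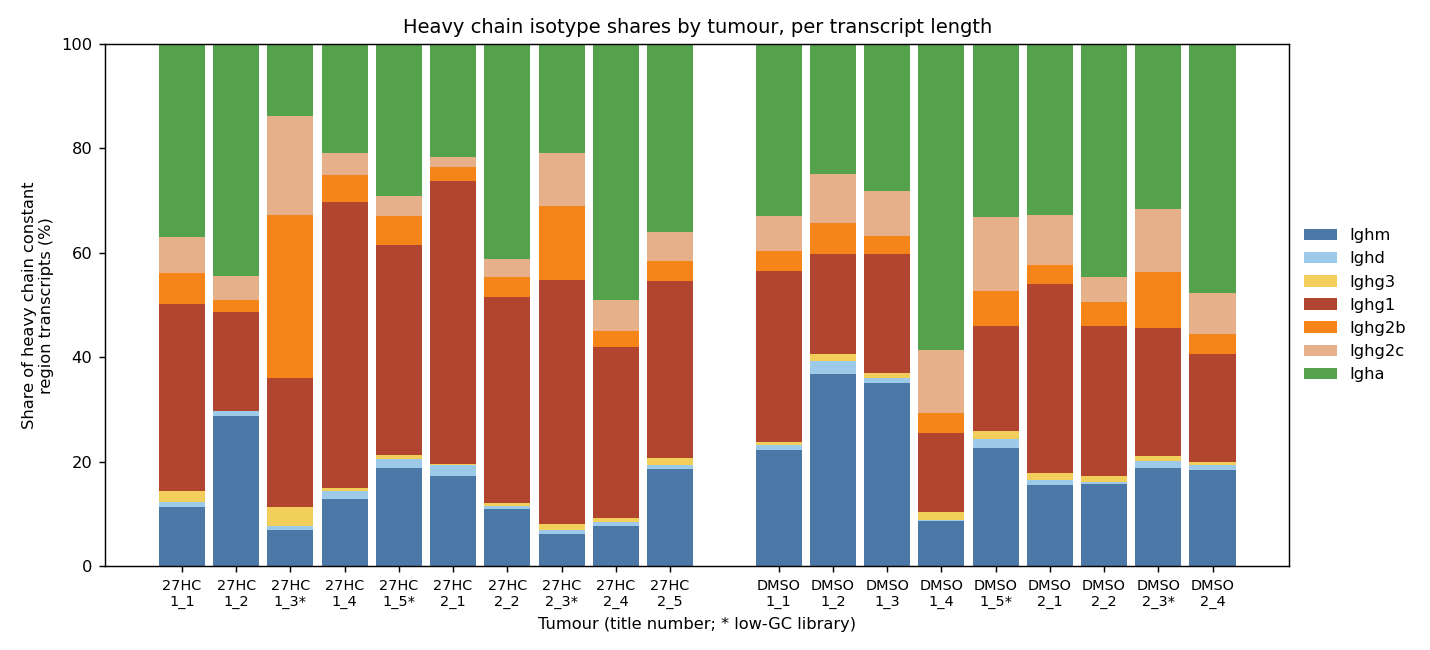
Share of heavy chain constant region transcripts (%) taken by each of 7 isotypes in each tumour, 10 27HC tumours on the left and 9 DMSO tumours on the right, with asterisks for low-GC libraries. Ighg1 takes 18.8% to 54.8% in 27HC tumours and 15.2% to 36.1% in DMSO tumours, and 27HC 1_3 differs from the rest in its Ighg2b share of 31.1%.

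Variable segments, the parts of antibody genes that bind antigen, differ between B cell clones, and 47 of the 235 in the table had enough counts to test. None of the 47 passed, with 32 above 0 and a median log2 fold change of 0.25. Of all 15629 genes tested, 8430 were above 0. The summed level of the 235 segments was 7.94, 35.5 and 269 CPM (lowest, median, highest) in 27HC tumours, against 13.6, 54.6 and 140 CPM in DMSO tumours. The median sum was therefore lower in the 27HC group, and 4 of the 5 tumours with the highest sums were low-GC libraries. The most abundant heavy chain segment, Ighv3-2, held 18.2% of all heavy chain segment counts, and 37.0% of its counts were in 27HC 1_3. That tumour also had the most heavy chain segment counts of all, 5025, against medians of 621.5 in 27HC tumours and 682 in DMSO tumours. Ighv3-2 was the leading heavy chain segment in every DMSO tumour and in every 27HC tumour but 27HC 2_3 and 27HC 2_4. The most abundant segment of a tumour took a median of 15.9% of its heavy chain segment counts in 27HC tumours and 18.8% in DMSO tumours, so that several segments contributed in most tumours.

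Other genes of the B cell and plasma cell programmes did not pass the test either. Of 20 further B cell genes, 18 were tested, 0 passed, 7 were above 0 and 11 below, and their median was -0.07. Pax5, which encodes a transcription factor that holds B cell identity, was at 0.491 ± 0.345 CPM in 27HC tumours and 0.903 ± 0.541 CPM in DMSO tumours (SD, n = 10 and 9), with a log2 fold change of -0.86 (SE 0.51), and of -1.38 without the low-GC libraries (unadjusted p 0.0262, adjusted p 0.787 by edgeR). Of 14 further plasma cell genes, 13 were tested, 0 passed, 6 were above 0 and 7 below. Mzb1, an antibody-folding factor of the endoplasmic reticulum, was at 1.34 ± 1.05 CPM in 27HC tumours and 1.04 ± 0.361 CPM in DMSO tumours. Its medians ran the other way, at 0.851 CPM in 27HC tumours and 1.02 CPM in DMSO tumours, and 3 of 10 27HC tumours were above the DMSO median. Tnfrsf17, which encodes the plasma cell survival receptor BCMA, had under 10 counts in every tumour, 11 in all in each group.

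No gene of the germinal centre, attraction or antibody receptor lists passed. Of 8 genes of the germinal centre, where B cells mutate and select their receptors, 7 were tested and 0 passed, and Bcl6, its master transcription factor, was at 92.8 ± 18.2 CPM in 27HC tumours and 75.7 ± 21.5 CPM in DMSO tumours (SD, n = 10 and 9; log2 fold change 0.29, SE 0.15, and 0.34 without the low-GC libraries). Of 14 genes that attract B cells or keep them alive, 13 were tested and 0 passed. Cxcl13, the chemokine that draws B cells into follicles, was at 0.626, 3.39 and 40.9 CPM in 27HC tumours, against 1.32, 3.11 and 19.9 CPM in DMSO tumours, and its log2 fold change of 0.51 was 0.14 without the low-GC libraries and -0.23 without 27HC 1_3. Ccl21a, a chemokine gene with near-identical copies whose reads may be divided among them, was at 0, 5.45 and 39.9 CPM in 27HC tumours, against 0, 0.276 and 12.2 CPM in DMSO tumours (log2 fold change 2.47, SE 1.19, adjusted p 1.00 by edgeR). That fold change was 4.21 without DMSO 1_5, 1.93 without 27HC 1_3, 2.33 without the low-GC libraries, 3.49 with a replicate block and 1.21 by limma-voom with quality weights. Of 7 genes for antibody receptors and transport, 6 were tested, 0 passed and 5 were below 0, among them Fcgr1, a high-affinity IgG receptor of macrophages, at 18.1, 25.8 and 57.9 CPM in 27HC tumours, against 25.0, 38.3 and 61.0 CPM in DMSO tumours. The smallest unadjusted p of the 6 was that of Fcer1g, 0.0482 by edgeR, which did not pass once adjusted. Fcer1g was at 68.5, 87.0 and 100 CPM in 27HC tumours, against 63.0, 98.2 and 134 CPM in DMSO tumours.

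Across tumours, B cell genes and antibody genes tended to be high in the same tumours, and fewer pairs passed without the low-GC libraries. Among the 14 tumours without those libraries, 9 of the 21 pairs of a B cell gene and an antibody gene had an adjusted p under 0.05 in a permutation test of Pearson's r on log2 CPM (adjusted over 45 pairs), with r of -0.153 to 0.909 and a median of 0.508. Over all 19 tumours the count was 20 of 21, with r of 0.403 to 0.906 and a median of 0.721. Within the 10 27HC tumours it was 17 of 21 (median r 0.771), and within the 9 DMSO tumours 5 of 21 (median r 0.674). In both groups r was above 0 for all 21 pairs. By the first number of the title the count was 12 of 21 among tumours with 1 and 14 of 21 among tumours with 2. The share of all gene pairs that would pass was not computed, so these counts do not show a tie particular to these genes. Over 19 tumours and 12112 protein-coding genes, an r of 0.439 with Jchain ranked 4224 and one of 0.708 with Ms4a1 ranked 1633. With Cd79a, an r of 0.579 ranked 279.

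Of the 21 pairs, Ighm and Cd79b were the most closely tied. Over 19 tumours r was 0.906 and Spearman's rho 0.909, each with a permutation p of 1e-05, the smallest that 100000 resamples can give (adjusted p 5e-05 and 5.62e-05). Without the 2 tumours farthest from the median of Ighm, r was 0.919, and among the 14 tumours without low-GC libraries it was 0.909. Igkc and Jchain, both on the antibody side, were tied about as closely, with r of 0.951 over 19 tumours and 0.902 in the 14. Ms4a1 gave a different picture: its r with Jchain was 0.775 over 19 tumours (rho 0.596, permutation p 0.00017 and 0.00823, adjusted 0.000348 and 0.0095) and 0.652 without the 2 tumours farthest from the median of Jchain, but 0.252 in the 14 tumours (permutation p 0.381, adjusted 0.428). The weakest of the 21 pairs over 19 tumours was Ms4a1 with Igha, at r of 0.403 (rho 0.237, permutation p 0.0870 and 0.326) and -0.0453 in the 14. In the 14 tumours Ms4a1 had only 4 to 30 counts and did not pass the filter on low counts. Its r there is therefore that of a gene near the floor, and the part of low counts in it was not tested.

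**Figure D4:**
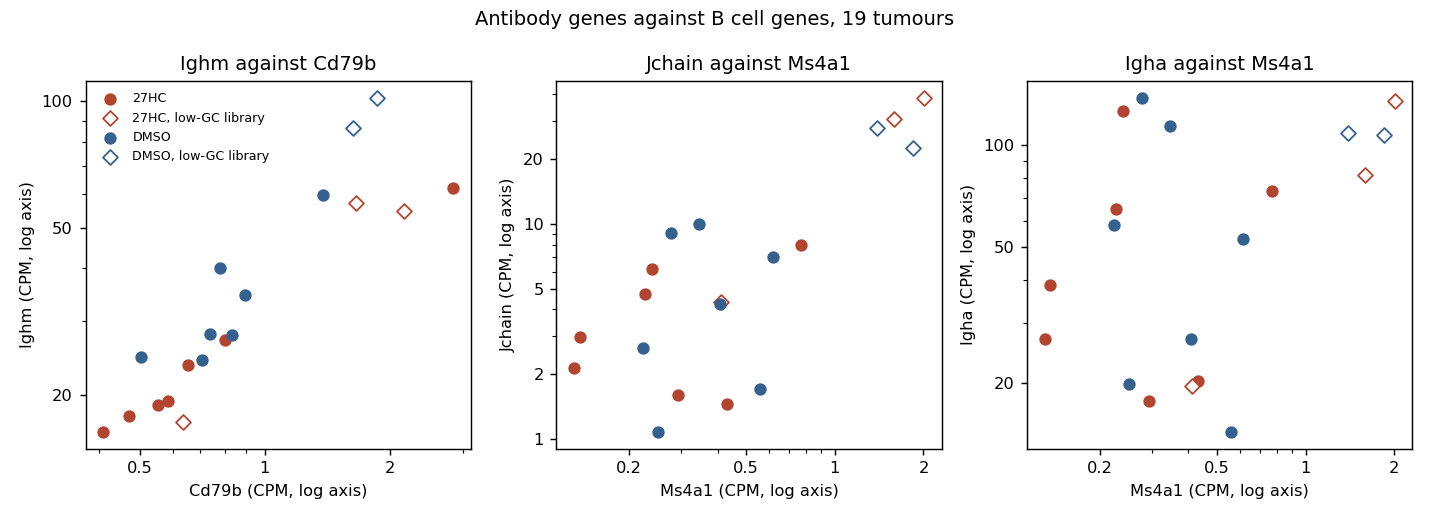
CPM of an antibody gene against a B cell gene (both log axes) in 19 tumours, for Ighm against Cd79b, Jchain against Ms4a1 and Igha against Ms4a1, with open diamonds for low-GC libraries. The first pair follows 1 line with r of 0.909 without the low-GC libraries, while in the second 4 low-GC libraries form a group of their own and r is 0.252 without them.

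The genes whose levels ran most like these, among 12112 protein-coding genes whose log2 CPM averaged at least 1, are given as a description over 19 tumours that share depth and library type. For Cd79a the closest was Spib, a transcription factor of the ETS family, at r of 0.892 (0.865 in the 14 tumours without low-GC libraries), and for Jchain it was Cd28, a co-receptor of T cells also found on plasma cells, at 0.961 (0.901). For Ighm it was Dock2, a regulator of leukocyte movement, at 0.918 (0.938), for Igha Phf20 at 0.843 (0.798), and for Ms4a1 Trim12c at 0.931 (0.773). Plasma cell list genes divided in sign against Jchain over the 19 tumours: of 13, 8 had r above 0 and the others below. Irf4 had r of 0.738 (0.564 in the 14) and Prdm1 0.656 (0.695), both transcription factors of plasma cells. Xbp1, on the same list, had -0.147 (-0.392). The lowest was Sdc1, a plasma cell marker that epithelial cells also express, at -0.855 (-0.615). Sdc1 was at 482 ± 189 CPM in 27HC tumours and 515 ± 194 CPM in DMSO tumours (SD, n = 10 and 9).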

How the data were processed

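RNA of 19 tumours (10 27HC, 9 DMSO) was sequenced from both ends with a stranded mRNA kit, per the labels' protocols. The authors deposited expected counts per gene; kallisto 0.44.0, edgeR, limma and GRCm38 are named per the submitters' processing notes, while the sources used here do not state the summing to genes or the annotation release. Symbols (26290 of 26796), coordinates and lengths came from GENCODE M21. Expected counts were rounded and tested with edgeR 4.0.16 (R 4.3.3; TMM, filterByExpr, quasi-likelihood, Benjamini-Hochberg, threshold 0.05), which kept 15629 genes and left out 11167. Log2 CPM used a prior count of 2. On data simulated from these means (15437 genes), 73.5% of 98 genes changed 2-fold and 92.9% of 99 changed 4-fold were recovered, a share over genes of all spreads and not for genes as variable as the 10 described.

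Isotype shares are counts over transcript length, tested by exact permutation over tumours (92378 regroupings); Ighe, with a median count under 10, was not tested. The transcript of shortest genomic span, the secreted form, gave the length. That choice, the low-GC limit of 50.5% and every result without those libraries were added after values had been seen. Correlations used 100000 resamples. The genes and lists were chosen with earlier results of these data known. Named genes are the 10 members, the genes most like 5 of them, the most abundant variable segment, and from each list genes of smallest p or named in a fixed set, of which a part is printed; 1 listed gene is not reported here. Intervals of counts cover counting error only. No 2 libraries of a group matched within sampling noise (lowest chi-square per degree of freedom 39.0). Alternatives were DESeq2 1.42.0, limma-voom (limma 3.58.1) with and without quality weights, other scalings and filters, a replicate block, the first title number and leaving out each tumour.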

Additional observations from a re-analysis of the deposited data

Results flagged for a closer look

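Each group's highest and lowest tumour was compared with its nearest neighbour by Dixon's test for the 10 genes and 7 isotype shares, 34 groups in all. Chance marks about 1 in 20 where values are normally distributed and groups are independent. Neither holds here: Ighg2b in 27HC tumours had a mean of 33.1 CPM and a median of 6.16 CPM, and levels and shares rest on the same counts. The marks are therefore a description. The test marked 5, and 4 of them were in 27HC 1_3, a low-GC library. In 27HC 1_3, Ighg2b was at 189 CPM, with the next 27HC tumour at 93.6 CPM, and Ighg3 was at 21.3 CPM, with the next at 7.44 CPM. The share of Ighg2b among heavy chain transcripts there was 31.1%, with the next at 14.2%, and that of Ighg2c was 19%, with the next at 10.1%. As shares of counts these were 30.8% (Wilson 95% interval 30.3% to 31.4%) and 18.8% (18.3% to 19.2%), so counting error is small beside the gap. In the DMSO group the Ighg2b share of DMSO 2_3, also a low-GC library, was 10.8%, with the next at 6.80%. What sets these tumours apart was not tested.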

How the results depend on the processing

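The count of genes called was 0 in the edgeR fit with all tumours (354 at an unadjusted p under 0.05) and in every alternative, the threshold of 0.1 included, except DESeq2, which called 2. Titles number the tumours alike in both groups, but same-numbered tumours did not all deviate together (r of -0.426 to 0.779 over 9 pairs, and 1 of 9 DMSO tumours matched its own number best). The median r was 0.291 for the same number and 0.0654 for other numbers. Whether same-numbered tumours have more than a number in common cannot be told, since the labels do not explain the numbers. The fit with a replicate block, in which 27HC 2_5 has no partner and carries no information, called 0 genes (229 at an unadjusted p under 0.05). No interaction of 27HC with the first title number passed for the 10 genes (smallest p 0.286 by edgeR, adjusted 0.911).

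Some log2 fold changes had the other sign than in the fit with all tumours, none of them past the threshold; the cause was not tested. Under limma-voom they were -0.23 for Igkc, -0.34 for Ighg3, -0.14 for Jchain, -0.13 for Cd79b and -0.64 for Ighg2c. With quality weights in limma-voom they were -0.62 for Igkc, -0.25 for Ighg2b, -0.58 for Ighg3, -0.60 for Jchain, -0.092 for Cd79a, -0.29 for Cd79b, -0.071 for Mzb1 and -1.02 for Ighg2c. With the replicate block they were -0.21 for Igkc, -0.27 for Ighg3, -0.10 for Jchain, -0.078 for Cd79b and -0.65 for Ighg2c. In tumours with first number 1 it was 0.23 for Ms4a1. In tumours with first number 2 they were -0.065 for Igkc, -0.011 for Jchain, -0.17 for Cd79a, -0.31 for Cd79b and -0.16 for Ighg2c. Without the low-GC libraries they were -0.28 for Igkc, -0.28 for Ighg3, -0.39 for Jchain, -0.025 for Mzb1 and -0.78 for Ighg2c. With low GC as a covariate they were -0.12 for Igkc, -0.31 for Jchain and -0.47 for Ighg2c. Under DESeq2 it was -0.21 for Cxcl13. Leaving out each tumour in turn turned the sign of the following genes, whose values ranged from -0.16 to 0.50 for Igkc, from -0.18 to 1.16 for Ighg3, from -0.50 to 0.47 for Jchain, from -0.022 to 0.28 for Cd79a, from -0.23 to 0.21 for Cd79b, from -0.50 to 0.30 for Ms4a1, from -0.23 to 0.94 for Cxcl13 and from -0.57 to 0.56 for Ighg2c.

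The Ighg1 share differed by 13.5 points from counts without length, 13.9 within the 5 member heavy chain genes and 13.1 with the longest transcripts, all past the threshold, unlike the 13.7 points with secreted lengths. Leaving out each tumour gave 11.8 to 15.8 points (adjusted exact p 0.0101 to 0.102), and it passed without 27HC 1_2, 27HC 1_3, DMSO 1_1 or DMSO 2_1. With first number 1 or 2 alone (5 against 5, 5 against 4 tumours) the differences were 12.8 and 13.9 points (unadjusted exact p 0.0873 and 0.0476, adjusted 0.611 and 0.333). The Ighg2c share, past the threshold without 27HC 1_3 and without the low-GC libraries, differed by -4.28 to -2.32 points over the left-out tumours and by -3.76 without the low-GC libraries. The Ighd share difference was 0.0224 points with the longest transcripts, 0.00648 with first number 2, 0.0279 without the low-GC libraries and -0.222 to 0.0589 over the left-out tumours. The Ighg3 share difference was -0.171 and -0.226 and the Ighg2b one -0.215 and -0.318 with first number 2 and without the low-GC libraries, and over the left-out tumours they ranged from -0.224 to 0.169 and from -0.00612 to 3.30.

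Of 21 pairs of a B cell and an antibody gene, 20 passed with all tumours, 12 with first number 1, 5 within DMSO, 9 without the low-GC libraries and 17 to 21 over the left-out tumours; Ms4a1 with Igha had r of -0.0453 without the low-GC libraries. Depth limits the low genes most, since Ms4a1 had 4 to 80 counts and Ighg3 1 to 898.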

Other observations

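DESeq2 called 2 genes of all those tested, neither an antibody nor a B cell gene, and they are named here because of that count and not by the rule for named genes. Tsc22d3, a gene induced by glucocorticoids, was at a log2 fold change of 0.81 by DESeq2 (adjusted p 0.0104) and 0.79 by edgeR (adjusted p 0.838). Bpifa2, a salivary gland gene, was at -2.32 by DESeq2 (adjusted p 0.0402) and -10.6 by edgeR (adjusted p 0.880), and its level was at 3974 CPM in DMSO 1_5 and at most 1.89 CPM elsewhere.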
